A study of Arabidopsis thaliana with 115 samples.

Results

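The 9 clade A protein phosphatase 2C (PP2C) genes of Arabidopsis, ABI1, ABI2, HAB1, HAB2, PP2CA, HAI1, HAI2, HAI3 and AHG1, were followed across 33 transcription factors (TFs) that respond early to nitrogen. They were picked by locus identifier from the 33016 identifiers counted in each library, as the genes of this clade. The libraries came from protoplasts, cells without walls, made from roots of 10-day-old Col-0 seedlings and transfected with a TF fused to the glucocorticoid receptor (97 libraries) or with the empty vector, EV (18 libraries). All libraries, EV included, received 60 mM nitrogen (20 mM KNO3 and 20 mM NH4NO3), 35 uM cycloheximide, a blocker of protein synthesis, and 10 uM dexamethasone, which lets the fusion protein into the nucleus. Each of 6 batches had 3 EV libraries. The assay is transient, the TF is overexpressed, and cells were sorted by a fluorescent reporter of transfection.

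Clade A PP2Cs are the brake of abscisic acid (ABA) signalling. Without the hormone they hold SnRK2 kinases inactive by removing phosphate groups. With it, PYR/PYL receptors bind and inhibit the phosphatases, and the freed kinases phosphorylate ABF transcription factors, which act on ABA-responsive promoter elements. Several of the PP2C genes are themselves induced by ABA, a negative feedback loop, and all of the family's well-studied members repress ABA responses in seeds or in vegetative tissue.

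Library totals ranged between 6756385 and 45372240 counts in batches 1 to 4 (75 libraries) and between 1542961 and 9697384 in batches 5 and 6 (40 libraries). The 10 most abundant genes took 4.69 to 8.14% of counts in batches 1 to 4 and 18.3 to 49.5% in batches 5 and 6. For the 25 TFs whose own gene could be matched by RefSeq name, every TF library lay above every EV library of its batch for that gene, which includes the transfected copy. Of 8 root markers, 7 passed the filter on low counts, and their summed level was 26.9 to 272 CPM (the usual abbreviation for counts scaled to the normalised library total) in TF libraries and 23.5 to 131 CPM in EV libraries. Of 6 shoot markers 3 passed, with sums of 11.7 to 71.9 CPM in TF libraries and 12.1 to 53.0 CPM in EV libraries. By the study's methods, the cells given one construct were divided after transfection over 3 wells, so the libraries of a group are wells of a shared transfection, and every SE and adjusted p here measures the spread between wells and not between independent transfections or plants. Each well also held cells given another TF with a different fluorescent reporter, and the sort separated them.

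Promoter windows reaching from 250 bases before to 50 bases after the annotated gene start were read from the RefSeq TAIR10.1 genome, whose chromosome lengths equal those of TAIR10. They are shown because the bases ACGTG form the core of the ABA-responsive element, through which members of the bZIP family act. ACGTG, searched on both strands and added after the sequences had been seen, stood in the windows of 6 members (HAB1, HAB2, PP2CA, HAI2, HAI3 and AHG1), and in 26.7% of 27443 promoters. The full elements ACGTGGC or ACGTGTC stood in 3 members (HAB1, PP2CA and AHG1) and in 7.64% of promoters, and the G-box CACGTG, which contains ACGTG, in 2 members (PP2CA and AHG1) and in 7.68%. TGACG, a core for TGA factors, was found in 6 members and 23.1% of promoters, the W-box TTGACC or TTGACT in 3 members and 32.4%, and the homeodomain core AATNATT in 1 member and 33.8%. CACGTAAGT, a site described for NAP, was in no member window and in 0.109% of promoters. The bases ACGT alone stood in 8 members and in 49.9% of promoters. The stretches below lie around an ACGTG near the gene start, written along the gene's own strand with ACGTG in capitals. That of AHG1 is not printed.
HAB1, chr1:27389912-27389951, plus strand: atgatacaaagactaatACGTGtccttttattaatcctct
HAB2, chr1:6034230-6034269, plus strand: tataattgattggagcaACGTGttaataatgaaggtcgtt
PP2CA, chr3:3585865-3585904, minus strand: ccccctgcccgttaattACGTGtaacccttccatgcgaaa
HAI2, chr1:2282818-2282857, minus strand: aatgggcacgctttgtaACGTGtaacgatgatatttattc
HAI3, chr2:12608623-12608662, plus strand: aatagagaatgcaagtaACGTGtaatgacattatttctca
The capitals begin 19, 23, 37, 12 and 35 bases before the start of HAB1, HAB2, PP2CA, HAI2 and HAI3. In AHG1, ACGTG on the gene's own strand began 2 and 58 bases before the start. The windows of ABI1, ABI2 and HAI1 held no ACGTG, which says only that these letters are not in them.

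The genes other than AHG1 were clearly expressed in EV cells, and AHG1 was close to undetected. Per kilobase of exon, the median EV level over 18 libraries was highest for ABI1, at 90.3 CPM per kilobase (RPKM), followed by HAI2 with 81.5, PP2CA with 71.2, HAI1 with 56.2, HAB2 with 37.5, HAB1 with 22.2, HAI3 with 18.7 and ABI2 with 18.4 RPKM. The EV ranges of all neighbours in this order overlapped, except that AHG1, with a median of 0.317 RPKM, lay below all the others. Levels depended strongly on the batch. For HAI3 the mean EV level was 196 CPM in batch 4 and 10.6 CPM in batch 6, an 18.4-fold span, and for HAI2 it was 505 CPM in batch 4 and 77.5 CPM in batch 1, a 6.51-fold span. HAB2 was the steadiest, with a span of 1.47-fold, and the median over the 13258 genes of at least 5 CPM in EV was 2.29-fold. Because of these spans each TF was set only against EV of its own batch.

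**Figure D1:**
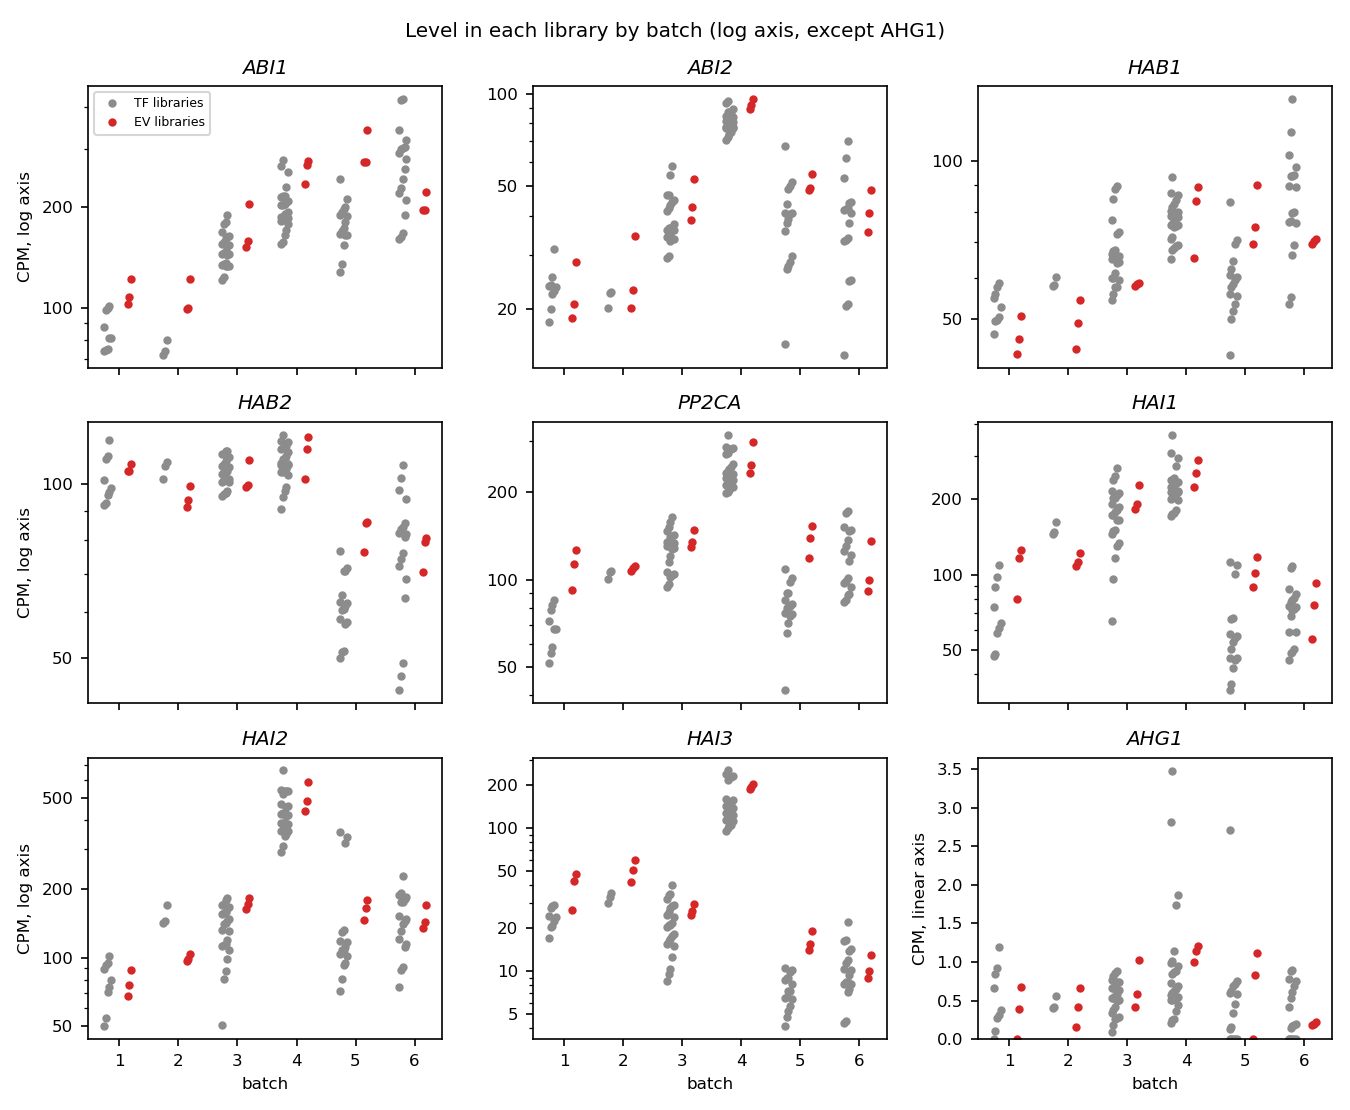
Level of the 9 genes in each library (y axis, CPM, on a log scale except for AHG1) by batch (x axis), with TF libraries in grey left of EV libraries in red. HAI3 reached 189 to 203 CPM in the EV libraries of batch 4 and 8.91 to 13.0 CPM in those of batch 6, and in batch 5 all 16 TF libraries lay below the 3 EV libraries for ABI1, PP2CA and HAI3.

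Most changes of these phosphatase genes were decreases, and in such bulk samples fewer cells that express a gene and less RNA per cell cannot be told apart. Of 297 gene and TF combinations, 80 passed a false discovery rate (FDR, Benjamini-Hochberg adjusted p of edgeR's quasi-likelihood test) of 0.05, 66 of them lower and 14 higher in TF cells than in EV cells. This is 22.2% lower and 4.71% higher, where over all 22883 genes tested and the 33 TFs 4.99% of combinations were lower, 4.59% higher and 9.58% called in either direction. The median log2 fold change of the 9 genes over all TFs was -0.21, and the medians over all genes tested lay between -0.08 and 0.03 in the single TFs. Since well-expressed genes are called more often, the 8 members above 5 CPM on average were also read against the 13393 genes above that level, of which 7.69% of combinations were lower and 6.53% higher, where the 8 members had 25.0% lower and 5.30% higher. Fits that left out 1 replicate number of every group called 60, 44 and 60 combinations without replicates 1, 2 and 3, and without replicate 2 there were 38 lower and 6 higher. Of the 80 calls, 76 had no overlap between TF and EV libraries. With so few libraries per group a call favours such a gap by itself. The share without overlap among all called genes is not given here. In all 9 alternative fits, 35 of the 80 were called in the same direction.

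**Figure D2:**
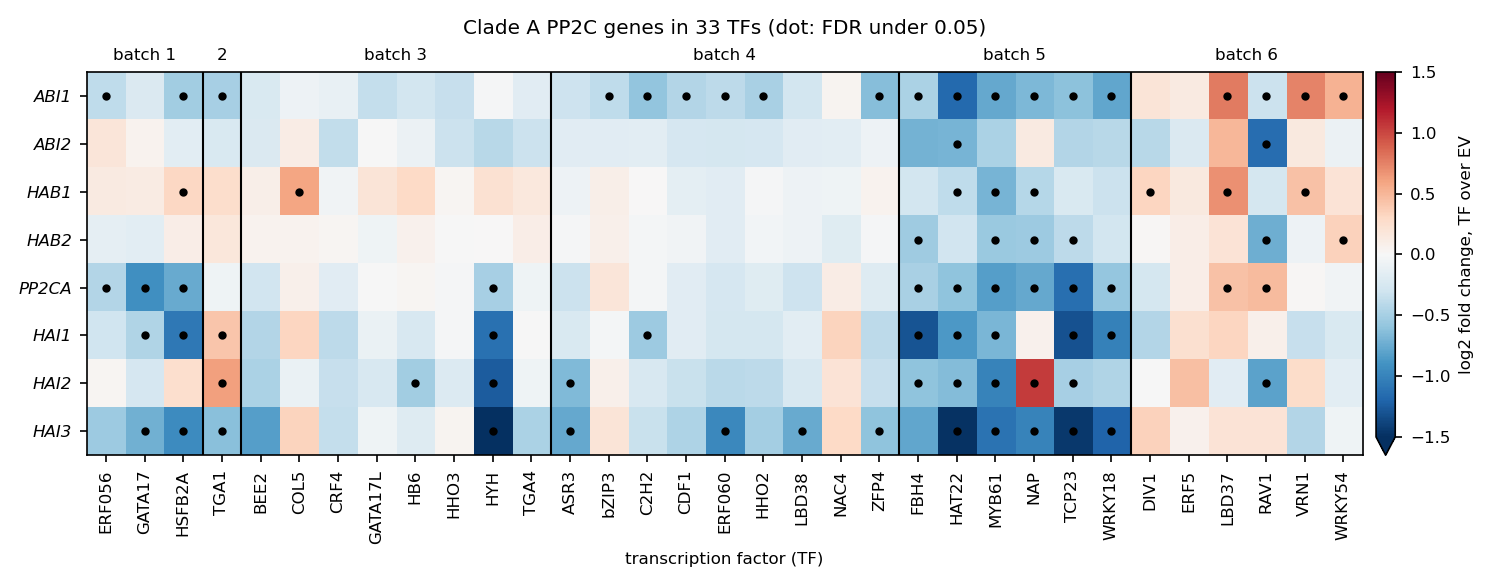
Log2 fold change of the 8 expressed genes (rows) in each TF (columns, grouped by batch) over EV of the same batch, blue for lower and red for higher, with a dot where FDR was under 0.05. The blue block in batch 5 holds 34 of the 66 decreases, and the strongest increase is HAI2 in NAP, at 1.05.

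The decreases were not spread evenly over the batches. In batch 5, which holds FBH4, HAT22, MYB61, NAP, TCP23 and WRKY18, 34 of 54 combinations were lower and 1 was higher (63.0% and 1.85%), where over all genes tested 3.99% were lower and 5.96% higher in these TFs. Without batch 5, 32 of 243 combinations were lower and 13 higher. Among genes of at least 5 CPM this left 14.8% of the members' combinations lower and 6.02% higher, against 8.04% and 6.11% of all such genes. The 6 TFs of batch 5 shared the same 3 EV libraries, so their decreases are not independent of each other. For ABI1, PP2CA and HAI3 all 16 TF libraries of batch 5 lay below its EV libraries, which held for 0.567% of the 13393 genes. The fits without replicate 1, 2 or 3 still had 25, 22 and 26 lower combinations there. Summed shoot markers, nearly all from the carbonic anhydrase gene CA1, were 20.6 to 71.9 CPM in these TF libraries and 12.1 to 16.5 CPM in the EV libraries, and root markers were 72.2 to 118 CPM and 81.5 to 93.0 CPM. Within these sums the root marker CASP1 was called higher in each of the 6 TFs, with FDR between 7.1e-05 (TCP23) and 0.0331 (MYB61). No root marker was called lower in them. The 10 most abundant genes took 18.4 to 34.0% of counts in the TF libraries and 23.1 to 37.5% in the EV libraries. The part of these differences in the result was not tested.

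**Figure D3:**
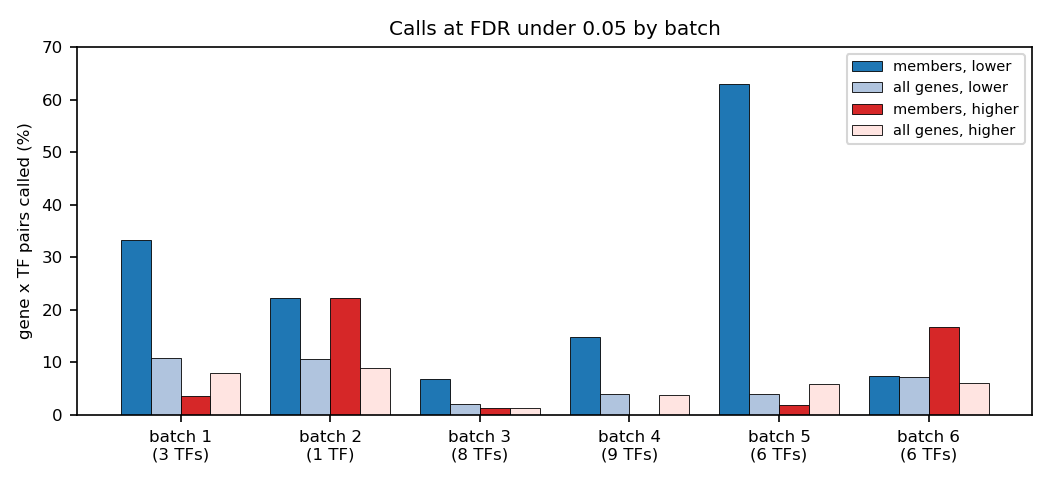
Share of gene and TF combinations called lower (blue) or higher (red) at FDR under 0.05 in each batch, for the 9 members (dark) and for all genes tested (pale). The members' share of lower calls was 63.0% in batch 5 and 33.3% in batch 1, and batch 6 was the batch of several TFs with more members higher (16.7%) than lower (7.41%).

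Here and below, a gene that a TF lowered, raised or changed is one called against EV of the same batch. In batch 5, a shift of the 3 EV libraries that the 6 TFs share and an effect of the TFs cannot be told apart. In this batch HAT22 and MYB61 each lowered 7 of the 9 genes, TCP23 lowered 6, FBH4 and NAP lowered 5, and WRKY18 lowered 4. These TFs changed 17.0%, 11.7%, 10.4%, 6.29%, 8.40% and 5.92% of all genes tested, in the order HAT22, MYB61, TCP23, FBH4, NAP and WRKY18. NAP also raised HAI2. In batch 1, HSFB2A lowered 4 and raised 1, GATA17 lowered 3 and ERF056 lowered 2, beside 21.9%, 16.1% and 18.7% of all genes. TGA1, alone in batch 2, lowered ABI1 and HAI3 and raised HAI1 and HAI2, beside 19.7% of all genes.

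In batch 3, 6 of 72 combinations were called (8.33%), where 3.48% were over all genes tested. HYH, a homologue of the light-signalling factor HY5, lowered 4 genes while it changed 6.83% of all genes. HB6 lowered HAI2 and COL5 raised HAB1, beside 6.54% and 3.97% of all genes. In batch 4, ASR3 (3.74% of all genes called), C2H2 (15.3%), ERF060 (4.72%) and ZFP4 (9.13%) lowered 2 members each, and bZIP3 (13.0%), CDF1 (7.04%), HHO2 (8.59%) and LBD38 (4.62%) lowered 1 each. In batch 6, LBD37 (10.7%) raised 3 members, VRN1 (2.55%) and WRKY54 (10.7%) raised 2 each, DIV1 (25.3%) raised 1, and RAV1 (24.4%) lowered 4 and raised 1. No member was called in BEE2 (0.891%), CRF4 (0.708%), GATA17L (4.58%), HHO3 (2.91%), TGA4 (1.39%), NAC4 (5.13%) or ERF5 (7.34%). In those 7 TFs, 14 of 63 combinations had an unadjusted p under 0.05 and DESeq2 called 3. The shares of all genes at these thresholds are not given here, so these counts cannot be set against them. Of 13393 genes of at least 5 CPM, 0.926% were called lower in as many TFs as ABI1 (16) or more. This share was 2.31% for HAI3 (13 TFs), 5.33% for PP2CA (10), 6.91% for HAI1 (9) and 8.88% for HAI2 (8). It was 19.4% for HAB2 (5), 34.3% for HAB1 (3) and 46.3% for ABI2 (2).

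ABI1 (AT4G26080, chr4:13219915-13222376, minus strand), whose dominant mutation first tied a PP2C to ABA insensitivity, changed in more TFs than any other member. It was lower in 16 TFs and higher in 3, and it was called in 9 TFs in all without replicate 2. The decrease in HAT22 was the deepest, with 135 and 128 CPM in HAT22 libraries against 340, 273 and 274 CPM in EV libraries (log2 fold change -1.17 ± 0.14 SE, FDR = 2.18e-11). MYB61 libraries had 166, 190 and 167 CPM and WRKY18 libraries 155, 165 and 198 CPM against the same EV libraries (-0.77 ± 0.12 SE for each, FDR = 3.17e-07 and 9.06e-07). Neither group came near its EV libraries, and all 3 calls held in all 9 alternatives. The increases all fell in batch 6, where the EV libraries had 223, 196 and 196 CPM. Against these, LBD37 libraries had 423, 340 and 291 CPM (0.78 ± 0.12 SE, FDR = 2.66e-07). VRN1 libraries had 419, 302 and 302 CPM (0.74 ± 0.12 SE, FDR = 5.58e-06). WRKY54 libraries had 317, 300 and 261 CPM (0.52 ± 0.12 SE, FDR = 0.001), a call that held in 8 of 9 alternatives. So ABI1 was lower in all 6 TFs of batch 5 and higher in 3 and lower in 1 of the 6 TFs of batch 6. The annotated ABI1 gene overlaps MEK1 on the other strand by 22 bases, and whether the counting used strand is not given in the sources used here.

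ABI2 (AT5G57050, chr5:23087122-23089631, plus strand), the closest relative of ABI1, was called in only 2 TFs, both lower, and in 1 TF without replicate 2, while the replicate block, 1 of the 9 alternatives, called it in 9. RAV1 libraries had 20.4, 20.9 and 14.2 CPM against 48.7, 35.6 and 41.1 CPM in EV libraries (-1.14 ± 0.21 SE, FDR = 1.24e-05, held in all 9 alternatives). In HAT22 libraries ABI2 stood at 35.7 and 26.9 CPM against 54.7, 48.6 and 49.4 CPM in EV libraries (-0.69 ± 0.23 SE, FDR = 0.0244, held in 7 of 9). ABI2 was thus not called in most TFs that lowered ABI1. Its SE was larger (in HAT22, 0.23 against 0.14 for ABI1), and the difference between the genes was not tested. The median log2 fold change over the 33 TFs was -0.22 for ABI2 and -0.35 for ABI1. By the same edgeR test, 10 TFs had an unadjusted p under 0.05 for ABI2 and 24 for ABI1. The log2 fold changes of the 2 genes had a Pearson r of 0.45 over the 33 TFs, which share EV libraries within batches.

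HAB1 (AT1G72770, chr1:27389948-27393327, plus strand), a phosphatase that dephosphorylates the guard cell kinase OST1, was the member with more increases (5 TFs) than decreases (3 TFs), and without replicate 1 or without replicate 2 it was called in 3 TFs in all. LBD37 libraries had 131, 114 and 93.6 CPM against 70.9, 70.4 and 69.4 CPM in EV libraries (0.68 ± 0.11 SE, FDR = 5.91e-07). COL5 libraries had 84.6, 88.4 and 89.4 CPM against 58.3, 58.5 and 57.9 CPM in EV libraries of batch 3 (0.59 ± 0.10 SE, FDR = 3.3e-05). Both groups lay wholly above EV, and the 2 calls held in all 9 alternatives. VRN1 libraries had 103, 89.6 and 93.4 CPM (0.44 ± 0.11 SE, FDR = 0.00952, held in 6 of 9). The decreases belonged to batch 5, where EV libraries had 89.8, 74.8 and 69.5 CPM. MYB61 libraries had 50.1, 51.8 and 42.9 CPM against them (-0.69 ± 0.11 SE, FDR = 7.61e-07). NAP libraries had 62.4, 58.3 and 53.5 CPM (-0.43 ± 0.11 SE, FDR = 0.00481, held in 7 of 9). HAT22 libraries had 60.6 and 59.3 CPM (-0.38 ± 0.13 SE, FDR = 0.0228, held in 5 of 9). All libraries of these 3 TFs lay below the lowest EV library.

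HAB2 (AT1G17550, chr1:6034270-6037398, plus strand), the closest relative of HAB1, was lower in 5 TFs and higher in 1, and was called in 4 TFs in all without replicate 1 or without replicate 2. RAV1 libraries had 43.9, 46.6 and 48.9 CPM against 80.7, 79.4 and 70.5 CPM in EV libraries (-0.73 ± 0.10 SE, FDR = 1.8e-09). MYB61 libraries had 51.5, 60.8 and 57.3 CPM and NAP libraries 61.4, 57.6 and 51.2 CPM against 86.0, 76.2 and 85.8 CPM in EV libraries (-0.55 ± 0.10 SE for each, FDR = 5.29e-06 and 1.04e-05). These 3 decreases held in all 9 alternatives. The increase in WRKY54, with 108, 103 and 82.4 CPM against the same EV libraries as RAV1, was small and held in 6 of 9 (0.34 ± 0.10 SE, FDR = 0.00798). HAB1 and HAB2 had a Pearson r of 0.77 over the 33 TFs.

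PP2CA (AT3G11410, chr3:3583782-3585850, minus strand), also known for binding ion channels, was lower in 10 TFs and higher in 2, and called in 5 TFs in all without replicate 2. TCP23 libraries had 74.8, 65.6 and 41.5 CPM against 119, 139 and 153 CPM in EV libraries (-1.13 ± 0.15 SE, FDR = 3.36e-09). MYB61 libraries had 79.6, 80.4 and 71.1 CPM against the same EV libraries (-0.83 ± 0.14 SE, FDR = 3.13e-06). GATA17, in batch 1, gave 55.9, 51.7 and 67.4 CPM against 113, 92.3 and 127 CPM in EV libraries (-0.92 ± 0.14 SE, FDR = 9.93e-08). Every library of these 3 TFs lay below EV, and the calls held in all 9 alternatives. The increases were weaker and overlapped EV. RAV1 libraries had 172, 149 and 131 CPM against 136, 99.5 and 91.8 CPM in EV libraries (0.47 ± 0.14 SE, FDR = 0.00682). LBD37 libraries had 170, 152 and 122 CPM against the same EV libraries (0.44 ± 0.14 SE, FDR = 0.0234). Both held in 7 of 9 alternatives. PP2CA was the only member RAV1 raised, while RAV1 lowered 4 others.

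The HAI genes, named for their strong induction by ABA, had the steepest called decreases of the family. HAI1 (AT5G59220, chr5:23894404-23896939, minus strand) was lower in 9 TFs and higher in 1. TCP23 libraries had 42.3, 46.1 and 34.3 CPM against 89.2, 101 and 118 CPM in EV libraries (-1.31 ± 0.18 SE, FDR = 3.2e-08). FBH4, with 2 libraries of 45.5 and 36.3 CPM, stood equally low against these EV libraries (-1.29 ± 0.21 SE, FDR = 3.89e-06). HYH libraries had 117, 64.9 and 96.0 CPM against 229, 182 and 191 CPM in EV libraries of batch 3 (-1.12 ± 0.16 SE, FDR = 1.24e-07). None of these libraries reached EV, and the 3 calls held in all 9 alternatives. The sole increase, in TGA1, with 145, 149 and 163 CPM against 122, 108 and 112 CPM in EV libraries, was close to the threshold and held in 5 of 9 (0.42 ± 0.16 SE, FDR = 0.0464).

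HAI2 (AT1G07430, chr1:2280746-2282828, minus strand), which with HAI1 and HAI3 forms a subgroup of the clade, was lower in 8 TFs and higher in 2, and called in 5 TFs in all without replicate 2. NAP gave the largest called increase of any member, with 354, 339 and 319 CPM in NAP libraries against 147, 165 and 179 CPM in EV libraries (1.05 ± 0.16 SE, FDR = 6.27e-07). TGA1 libraries had 145, 142 and 171 CPM against 96.3, 98.8 and 104 CPM in EV libraries (0.61 ± 0.16 SE, FDR = 0.00252). Both groups lay wholly above EV in all libraries and held in all 9 alternatives. HYH libraries had 80.7, 50.5 and 87.3 CPM against 182, 164 and 171 CPM in EV libraries (-1.25 ± 0.16 SE, FDR = 2.22e-08). MYB61 libraries had 93.1, 80.2 and 71.1 CPM against the same EV libraries as NAP (-1.002 ± 0.17 SE, FDR = 2.6e-06). RAV1 libraries had 88.5, 91.4 and 74.4 CPM against 169, 144 and 134 CPM in EV libraries (-0.81 ± 0.17 SE, FDR = 8.15e-05). These 3 decreases also held in all 9 alternatives.

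HAI3 (AT2G29380, chr2:12608675-12610350, plus strand), the third of the subgroup, was lower in 13 TFs and higher in none, and called in 3 TFs without replicate 1 and in 6 without replicate 3. The deepest called decrease of the family was in HYH, with 10.3, 8.54 and 9.51 CPM in HYH libraries against 29.3, 26.2 and 24.9 CPM in EV libraries (-1.51 ± 0.25 SE, FDR = 4.13e-06, held in all 9 alternatives). HAT22 libraries had 6.40 and 5.24 CPM against 19.2, 14.0 and 15.6 CPM in EV libraries (-1.48 ± 0.38 SE, FDR = 0.00236, held in 8 of 9). TCP23 libraries had 5.69, 4.79 and 9.02 CPM against the same EV libraries (-1.44 ± 0.34 SE, FDR = 0.00197, held in 8 of 9). No library of these TFs overlapped EV. HYH was the only TF of batch 3 to lower HAI1, HAI2 and HAI3 together, and it lowered PP2CA as well.

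**Figure D4:**
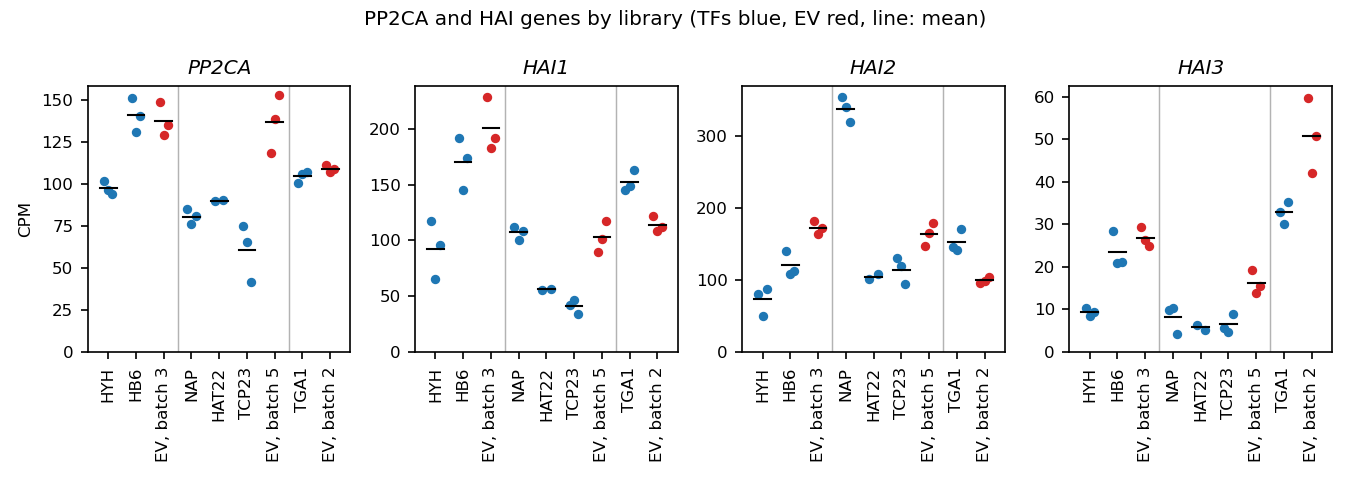
CPM of PP2CA and the HAI genes in each library of 6 TFs (blue), each left of EV of its batch (red), with the group mean as a line. HYH libraries lay below EV of batch 3 for all 4 genes, and NAP libraries lay above EV of batch 5 for HAI2, among the EV libraries for HAI1, and below them for PP2CA and HAI3.

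AHG1 (AT5G51760, chr5:21026805-21029188, plus strand), a phosphatase known mainly from seeds, passed the filter on low counts but held 0 to 56 counts per library, with 14 libraries at 0. No TF changed it by edgeR, with 1 TF at an unadjusted p under 0.05, 0 called by DESeq2, and 1 called where each TF was fitted only with EV of its own batch. That call was in ERF060, with 2.81, 1.73 and 3.48 CPM in ERF060 libraries against 1.00 to 1.21 CPM in EV libraries, not called in the fit over all libraries (1.27 ± 0.64 SE, FDR = 0.327) and named after its values were seen. With so few counts, smaller changes were not detectable.

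HB6, HAT22 and NAP were described for every member, since each has a known tie to ABA. HB6 is a homeodomain-leucine zipper protein that binds the ABI1 phosphatase in Arabidopsis. In HB6 cells ABI1 itself had 157, 133 and 134 CPM against 204, 159 and 152 CPM in EV libraries, which overlapped (-0.28 ± 0.12 SE, FDR = 0.174). Only HAI2 was called, with 141, 108 and 112 CPM in HB6 libraries against 182, 164 and 171 CPM in EV libraries (-0.52 ± 0.16 SE, FDR = 0.0289, held in 7 of 9). HAB1 missed the threshold although its HB6 libraries lay above EV (0.30 ± 0.10 SE, FDR = 0.0594), and the log2 fold changes of the other 6 genes lay between -0.41 and 0.06.

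HAT22, a homeodomain-leucine zipper factor induced by ABA, lowered all members but HAB2 and AHG1. HAB2 had 71.5 and 64.3 CPM in HAT22 libraries against 86.0, 76.2 and 85.8 CPM in EV libraries (-0.29 ± 0.11 SE, FDR = 0.0581). HAI1 stood at 55.8 and 56.8 CPM in HAT22 libraries against 89.2, 101 and 118 CPM in EV libraries (-0.87 ± 0.19 SE, FDR = 0.000388). HAT22 had 2 libraries, so 2 of the leave-one-out fits rest on a single HAT22 library whose spread is taken from the other groups.

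NAP, a NAC factor of leaf senescence known in leaves to act directly on the HAI1 promoter, raised 1 member and lowered 5. HAI1 was not called in root cells, with 112, 100 and 109 CPM in NAP libraries against 89.2, 101 and 118 CPM in EV libraries (0.06 ± 0.16 SE, FDR = 0.92), while HAI2 rose as given above. PP2CA fell to 85.1, 76.0 and 81.0 CPM in NAP libraries, against 119, 139 and 153 CPM in EV libraries (-0.76 ± 0.14 SE, FDR = 2.59e-05). HAI3 had 9.94, 10.4 and 4.12 CPM in NAP libraries against 19.2, 14.0 and 15.6 CPM in EV libraries (-1.004 ± 0.31 SE, FDR = 0.0269, held in 6 of 9). ABI1, HAB1 and HAB2 were also lower, ABI1 by -0.68 ± 0.12 SE (FDR = 8.38e-06). ABI2 was at 0.14 ± 0.19 SE (FDR = 0.785). For ABI1, PP2CA and HAI3 all 16 TF libraries of batch 5 lay below its EV libraries, so these decreases were not particular to NAP. In the other TFs of batch 5, HAI1 was lower, and HAI2 was lower or not called. A shift of the shared EV libraries and an effect of NAP cannot be told apart.

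The effects of TFs from the same family were compared with each other for 7 TF combinations and the 9 genes, each TF taken over EV of its own batch. WRKY18 and WRKY54 differed for 4 genes, where 10.4% of all genes tested did, LBD37 and LBD38 for 3 (7.60%), GATA17 and GATA17L for 1 (4.26%), HB6 and HAT22 for 4 (17.1%), and NAP and NAC4 for 4 (6.49%). For ABI1, WRKY18 minus WRKY54 was -1.29 ± 0.17 SE (FDR = 2.48e-09), and LBD37 minus LBD38 was 1.06 ± 0.17 SE (FDR = 1.28e-06). For HAI2, NAP minus NAC4 was 0.84 ± 0.22 SE (FDR = 0.00941, held in 5 of the 7 alternatives that gave it). In PP2CA, GATA17 minus GATA17L was -0.92 ± 0.19 SE (FDR = 0.000512, held in 7 of 8). The 2 ABI1 differences held in every alternative that gave them, as did that of HB6 and HAT22 for ABI1, while the other 13 of the 16 were lost in at least 1, each of them in a fit without replicate 1, 2 or 3. All of these compare TFs of different batches, so batch and TF cannot be told apart beyond what the EV libraries of each batch correct. TGA1 and TGA4 differed for no member, where 2.02% of all genes did, with 1 gene at an unadjusted p under 0.05 (HAI2, 0.68 ± 0.22 SE, FDR = 0.0957) and 1 called by DESeq2. HHO2 and HHO3 differed for none, where 0.350% of all genes did, with 0 at an unadjusted p under 0.05 and 0 by DESeq2, and their largest difference among the expressed members was -0.54 ± 0.29 SE for HAI3.

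The members followed each other to unequal degrees over the 33 TFs. Pearson's r between log2 fold changes was highest for PP2CA and HAI3 (0.81), HAB1 and HAB2 (0.77), PP2CA and HAI1 (0.72), HAI1 and HAI3 (0.71) and ABI1 and HAB1 (0.71). It was lowest for ABI2 and PP2CA (0.12) and for PP2CA and HAI2 (0.14). Within the HAI subgroup, HAI2 had r = 0.52 with HAI1, its highest value with any member, and 0.33 with HAI3. These values are descriptions, since TFs of a batch share EV libraries. Among 13393 genes of at least 5 CPM, those most like ABI1 were PHB (0.85), HSP17.6A (0.84) and HSP17.6II (0.83), the last 2 being small heat shock proteins. PP2CA was most like AFP1 (0.83), which codes for a protein that binds the ABA factor ABI5, then AT2G46600 (0.81) and HAI3. The genes most like HAI3 were AT3G02480 (0.86), PP2CA and AT3G28900 (0.81). HAB1 was most like FBH3 (0.85), HSFA1E (0.83) and HDR (0.81), and HAB2 like FBH3 (0.79), HAB1 and PHF1 (0.76). HAI1 was most like AT5G18130 (0.72), PP2CA and HAI3. HAI2 was most like AT5G50450 (0.71), SUE4 (0.68) and ROPGEF7 (0.64), and ABI2 like UGT76E2 (0.78), AT2G19880 (0.73) and AT4G31140 (0.73). For AHG1, at its low counts, no likeness can be read.

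Among the other genes of the pathway, those that break down ABA and those that respond to it had the largest shares of decreases. Of 10 tested ABA receptors (14 listed), 26 of 330 combinations with the 33 TFs were higher and 14 lower. PYL4 was called in 9 TFs (7 lower), PYL7 in 9 (8 higher) and PYL5 in 8 (6 higher). The 5 SnRK2 kinases had 9 higher and 8 lower of 165 combinations, SnRK2.2 being called in 6 TFs and SnRK2.3 and SnRK2.8 in 5 each. Among 5 tested ABA transcription factors (7 listed) 6 combinations were higher and 8 lower of 165, with ABF3 called in 6 TFs and ABF2 and ABF4 in 4 each. The shares were 7.88% higher and 4.24% lower for receptors and 5.45% higher and 4.85% lower for kinases, beside 4.59% and 4.99% over all genes tested. For the ABA transcription factors they were 3.64% higher and 4.85% lower. Well-expressed genes are called more often, and these lists were not set against genes of like level.

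For 7 tested genes of ABA synthesis (9 listed), 15 of 231 combinations were higher (6.49%) and 30 lower (13.0%). NCED3, whose enzyme makes the committed precursor of ABA under stress, was lower in 12 TFs and higher in none, AAO3 was lower in 9 and higher in 3, and NCED2 was lower in 4 and higher in 3. Of 3 tested genes of ABA breakdown (4 listed), 25 of 99 combinations were lower and 10 higher, with CYP707A3, an ABA hydroxylase, lower in 18 TFs and higher in 5, CYP707A1 lower in 7 and higher in 5, and CYP707A4 called in none. The 17 ABA response genes had 103 of 561 combinations lower and 48 higher, a share of 18.4% lower, near the 22.2% of the phosphatases. RD26, a NAC factor induced by drought, was lower in 18 TFs and higher in 4, the dehydrin COR47 lower in 9 and higher in 2, and the seed protein gene EM6 lower in 7 and higher in 4. The 4 clade B phosphatases, which act on MAP kinases, had 19 of 132 combinations lower (14.4%) and 11 higher (8.33%), with AP2C1 lower in 11 TFs.

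In HAT22 and MYB61, the TFs with the most members called, 9 of the 17 ABA response genes were lower in each, and 1 and 2 were higher. Of all genes tested, 10.4% were higher and 6.57% lower in HAT22, and 6.94% higher and 4.73% lower in MYB61. This was not particular to them. WRKY18, with 4 members called, also had 9 lower and 0 higher, beside 2.38% lower of all genes tested. GATA17 of batch 1, with 3 members called, had 8 lower and 0 higher, beside 9.83% lower of all genes. HAT22, MYB61 and WRKY18 share the EV libraries of batch 5. COR47 was lower in HAT22 and in MYB61 (-0.64 ± 0.12 SE and -0.31 ± 0.11 SE, FDR = 2.33e-05 and 0.0482). RD26 was lower in MYB61, at 220, 223 and 214 CPM against 425, 392 and 420 CPM in EV libraries (-0.91 ± 0.10 SE, FDR = 1.33e-12), and not called in HAT22 (-0.12 ± 0.11 SE, FDR = 0.545). EM6 went both ways, at -1.54 in HAT22 (FDR = 0.00189) and 1.30 in MYB61 (FDR = 0.000273). In HAT22, 3 of the 4 clade B genes were higher and none lower, AP2C1 by 1.00 ± 0.19 SE and AP2C2 by 1.40 ± 0.28 SE. In LBD37, which raised 3 phosphatases, 9 of the 17 ABA response genes were higher and 1 lower, beside 4.42% higher and 6.28% lower of all genes tested.

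**Figure D5:**
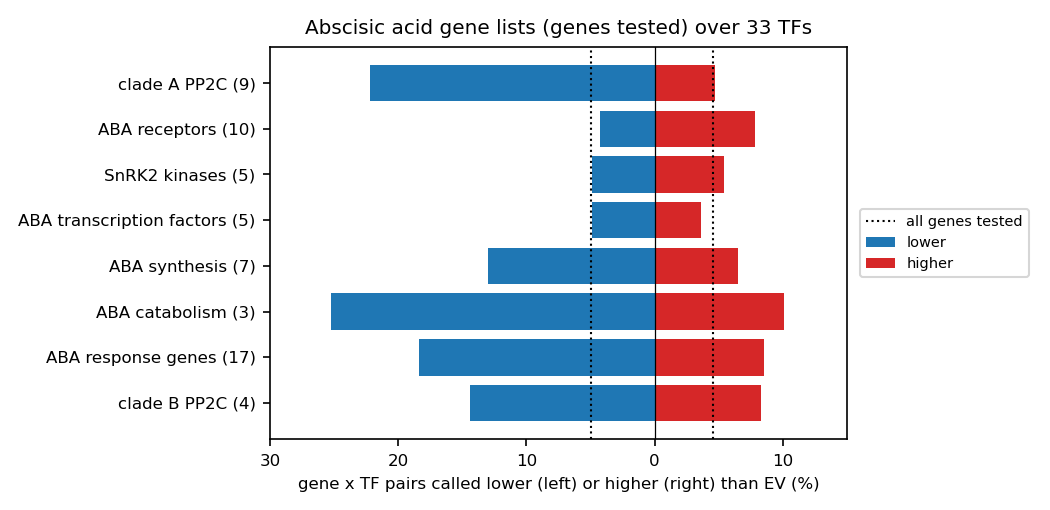
Share of gene and TF combinations called lower (blue, left) or higher (red, right) than EV for each list, with the number of tested genes in brackets and dotted lines at the shares over all genes tested (4.99% and 4.59%). Clade A phosphatases (22.2%), ABA breakdown (25.3%) and ABA response genes (18.4%) had the largest shares of lower calls. The dotted lines are not matched to the lists by expression level.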

How the data were processed

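RNA was sequenced from sorted root protoplasts, with libraries made by the NEBNext Ultra kit. The deposited values are raw counts per TAIR10 gene. Per the labels and the study's methods, the authors aligned reads with TopHat2 (version 2), counted them with GenomicAlignments and tested them with DESeq2. A gene entered the tests if 3 or more libraries each held 10 or more of its counts (22883 of 33016). Counts were normalised by TMM and fitted with edgeR 4.0.16 (R 4.3.3, robust quasi-likelihood F-test, TF and batch as terms, all 115 libraries, 76 residual degrees of freedom), and p-values were adjusted by Benjamini-Hochberg within each TF at 0.05. Each TF had 3 libraries, except FBH4 and HAT22 with 2. CPM used TMM-scaled library sizes, and RPKM divided them by exon length. On simulated counts the fit was checked for known changes. No 50-base exon stretch of a member was found in an exon of another protein-coding gene.

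The members and gene lists were chosen with earlier results of these data known. All members were named, with library values for up to 3 TFs of largest called increase and decrease each, HB6, HAT22 and NAP were described throughout, and 3 genes were named per list by number of TFs called. Alternatives were DESeq2 1.42.0, DESeq2 size factors, no filter, a replicate block, each TF fitted only with EV of its own batch, batches 1 to 4 and batches 5 and 6 fitted apart, and each replicate number left out.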

Additional observations from a re-analysis of the deposited data

Results flagged for a closer look

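The effects of 2 TFs of one family on the same gene differed past an FDR of 0.05 (edgeR quasi-likelihood test of the difference) in 16 of 63 comparisons, each given as the difference of the 2 log2 fold changes over EV. For WRKY18 minus WRKY54 it was -1.29 in ABI1, -0.53 in HAB1, -0.62 in HAB2 and -0.79 in HAI1. For LBD37 minus LBD38 it was 1.06 in ABI1, 0.76 in HAB1 and 0.75 in PP2CA. For GATA17 minus GATA17L it was -0.92 in PP2CA. For HB6 minus HAT22 it was 0.89 in ABI1, 0.69 in HAB1, 0.64 in PP2CA and 1.29 in HAI3. For NAP minus NAC4 it was -0.72 in ABI1, -0.87 in PP2CA, 0.84 in HAI2 and -1.30 in HAI3. In every one of these the 2 TFs were in different batches, and all but the 4 comparisons of LBD37 and GATA17 had a TF of batch 5.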

How the results depend on the processing

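Of the 80 calls, 616 of 720 values under the 9 alternatives stayed on their side of the threshold and 104 lost it, 80 of these in fits without a replicate number, and none reversed. Leaving out a replicate number gave 44 to 60 calls in all, 6 to 13 higher and 38 to 51 lower, 6 to 11 differences between TFs of a family, and 150 to 284 calls in the other pathway lists. Every such fit has fewer libraries, and leaves 1 library for FBH4 or HAT22 in some. Same-numbered TF and EV libraries of a batch deviated together in part (median r of 0.04 over 97 of them, 35 over 0.1, all over 0.1 in 2 of 31 TFs). For replicate 1 of batch 4, r lay between 0.27 (NAC4) and 0.36 (C2H2). The main fit did not take the numbers as pairing, so variation shared by same-numbered libraries stays in its spread. With the replicate block there were 25 differences between TFs of a family, 114 calls in all and 437 in the pathway lists. In the batches 1 to 4 alone, a choice made after seeing the data that holds fewer TFs, there were 41 calls, 6 higher and 35 lower. Where batches 1 to 4 and 5 and 6 were fitted apart, 4 of the 7 TF combinations lay within 1 fit, and 4 of their 5 called differences were called again. Such differences were not run for TFs fitted with their own batch. Of the 16, 13 were lost in some alternative, 10 of these only without a replicate number. Depth limits AHG1 in all libraries and HAI3 in batches 5 and 6.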
